A study of Mus musculus with 4 samples.

Results

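The elastic fibre genes measured here were elastin (Eln), the fibrillins Fbn1 and Fbn2, the fibulins Fbln1, Fbln2, Fbln5, Efemp1 and Efemp2, and the microfibril-associated proteins Mfap4 and Mfap5. They are 10 of the 32285 genes counted in spatial transcriptomes of injured mouse cortex. The 10 were chosen by their measured level in fibrotic spots against Col1a1-free spots of these same slices, so that contrast is described below without a test. A fibrotic spot had at least 5 Col1a1 UMIs (unique molecular identifiers, counted once per captured RNA molecule) per 10000, and a Col1a1-free spot had 0.

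Cortical lesions were made by photothrombosis (PT), in which light over the somatosensory cortex activates the dye Rose Bengal in the vessels. The mice had a C57BL/6 background, were of both sexes and, unless stated otherwise in the study, were between 7 and 21 weeks old. Brain slices lay on Visium arrays, whose barcoded spots can each hold several cells, with 2 slices on each of 4 capture areas and 1 mouse per slice. The 8 slices came from 1 wild-type mouse at rest, 1 wild-type mouse at 2 days after injury (dpi), 2 wild-type mice at 7 dpi, 2 wild-type mice at 21 dpi and 2 deleter mice, Cthrc1(creER); R26(DTA), at 21 dpi. In the deleter, a tamoxifen-inducible Cre made by Cthrc1-expressing cells is meant to switch on diphtheria toxin in them, and the study set both mice aside because no deletion was detectable. The sources used here do not state whether these 2 mice received tamoxifen, so a comparison with them need not be one of deleted with undeleted cells. Slices within an area carry no names, so slice numbers are arbitrary, and the slices at rest and 2 dpi were told apart by the size of the tissue piece. The slices at rest and 2 dpi shared 1 capture area. Otherwise time and genotype each coincide with the capture area and cannot be told apart from it. Tests ran over slices, never over spots. For times and genotypes their p-values measure the spread between 2 mice per group, and for positions within slices the spread over 6 or 8 mice.

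Elastic fibres give skin, arteries and lung their recoil. Fibroblasts and smooth muscle cells first lay down microfibrils of fibrillin, and fibulins then bring tropoelastin, the soluble product of Eln, together with lysyl oxidases, which crosslink it into an insoluble core. In the brain, such fibres are known mainly from arteries and from the meninges, the fibroblast-bearing membranes over its surface.

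Slices held between 11332780 and 23677298 UMIs. The median per spot lay between 12447 and 16158 in 7 slices and was 2633.5 at 2 dpi. Fibrotic spots numbered 3 at rest, 26 at 2 dpi, 112 and 392 at 7 dpi, 170 and 203 in wild-type mice at 21 dpi, and 193 and 274 in the deleter. The 2 dpi fibrotic spots had a median of 1309 UMIs. The 14 of them in the outer rings held 31.0 UMIs per 10000 of the 6 fibroblast markers, while the 12 deeper ones held 1 UMI of these, of Pdgfra. With 1 slice and so few UMIs, the 2 dpi class is not compared with other fibrotic tissue below. From 7 dpi on, the 6 fibroblast markers summed to between 38.5 and 106 UMIs per 10000 in fibrotic spots. Xist, transcribed from the inactive X chromosome of females, gave 1597 and 1281 UMIs at 7 dpi but 4 and 1 in the wild type at 21 dpi, where the Y-linked Ddx3y gave 1195 and 805. Sex therefore coincided with time in these wild-type slices. Deleter slice 1, with 1033 Xist UMIs at 21 dpi, is given beside the results below for that reason. It is 1 mouse of another genotype on another capture area, so sex and time still cannot be told apart.

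Before fibrosis formed, Eln transcripts were sparse. Over the whole slice, Eln stood at 0.00978 UMIs per 10000 at rest (16 UMIs, exact 95% Poisson interval 0.00559 to 0.0159) and at 0.0359 at 2 dpi (47 UMIs, 0.0264 to 0.0477). Such intervals cover counting error only, and neither time has a second mouse. At 7 dpi the whole-slice level of Eln was 0.197 and 1.74, and at 21 dpi 0.0829 and 0.371. All 6 slices at 7 and 21 dpi, deleter slices included at 0.148 and 0.152, thus lay above the slices at rest and 2 dpi.

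Efemp2, also called fibulin-4, which binds lysyl oxidase and tropoelastin, varied between times outside fibrotic tissue. In Col1a1-free spots it was at 0.05995 UMIs per 10000 at rest (0.0485 to 0.0733) and at 0.401 at 2 dpi (0.366 to 0.439), against 0.204 and 0.182 at 7 dpi and, for wild-type slices at 21 dpi, 0.157 and 0.106. The 2 dpi slice was thus the highest of all 8 and the slice at rest the lowest. The same 2 slices were the extremes for Efemp1 in these spots, at 0.146 and 0.0801. Tagln, a smooth muscle and contractile cell transcript, stood at 0.0467 at rest and 0.789 at 2 dpi in the same spots. The whole list of 8 smooth muscle and pericyte markers, Tagln included, summed to 0.687 at rest and 1.42 at 2 dpi. Tagln thus rose by at least as much as the whole list, and the other markers of the list together did not rise. The part of such cells in these differences was not tested. In a sum over spots, fewer cells of a type and less RNA per cell cannot be told apart.

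**Figure D1:**
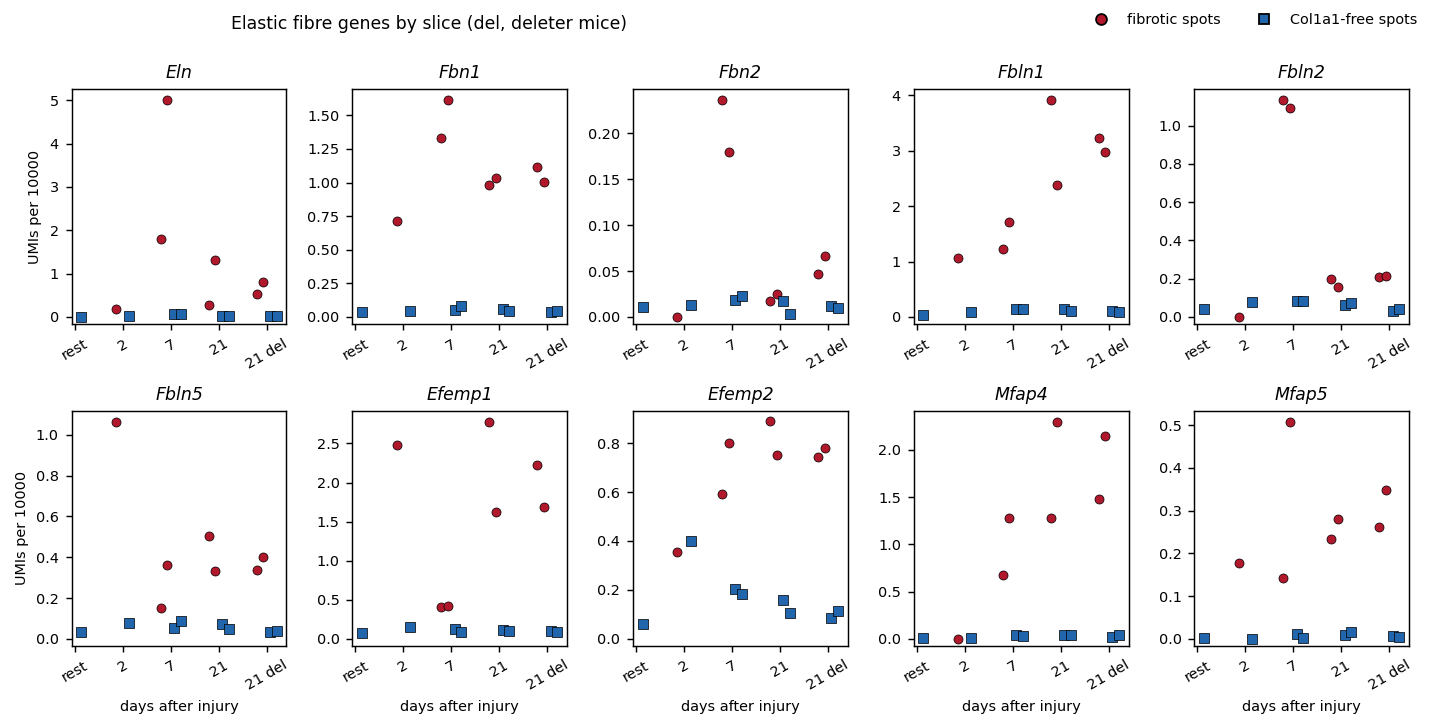
Level of each of the 10 genes in UMIs per 10000 (vertical axes, scaled per gene) by days after injury (horizontal axes; del, deleter mice at 21 dpi), with 1 point per slice and class of spots. Fibrotic spots lie above Col1a1-free spots for nearly every gene, Eln spreads several-fold between mice of the same time, and Fbln1 and Efemp1 stand higher at 21 dpi where Fbn2 and Fbln2 stand lower.

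In fibrotic tissue at 7 dpi, Eln reached 1.81 and 5.01 UMIs per 10000, against 0.0661 and 0.0717 in Col1a1-free spots of the same slices. The excess was 27.3-fold and 69.9-fold. In the 4 slices at 21 dpi, deleter included, the excess of Eln lay between 9.13-fold and 54.5-fold. Its partners in the fibre shared the excess to different degrees. Fbn1, the main fibrillin of adult microfibrils, was 19.1-fold to 24.3-fold higher at 7 dpi and 17.7-fold to 33.0-fold higher at 21 dpi. Mfap4, which binds tropoelastin and fibrillin, was 15.9-fold to 45.6-fold higher at 7 dpi and 32.2-fold to 76.9-fold higher at 21 dpi. Fbln5, which carries tropoelastin to microfibrils and binds integrins, had a smaller excess, 2.95-fold to 4.18-fold at 7 dpi and 6.72-fold to 10.8-fold at 21 dpi, and Efemp2 a similar one, 2.89-fold to 4.39-fold and then 5.66-fold to 8.81-fold. Mfap5, a microfibril component, lay between 0.142 and 0.508 UMIs per 10000 in fibrotic spots, on between 1 and 8 UMIs in the Col1a1-free spots of a slice. The highest folds of Eln and Mfap4 at 21 dpi likewise rest on 8 Col1a1-free UMIs each.

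Of the 10 genes, 10 were at least 2-fold higher in fibrotic spots in both slices at 7 dpi, a property of 12.0% of the 14671 genes counted there. In the wild type at 21 dpi it held for 9, all but Fbn2, against 17.2% of 14620 genes, and for 8, without Fbln2 as well, when spots of at least 2 Col1a1 UMIs per 10000 were taken as fibrotic. These counts restate the choice of the genes. Near the limit, the 10 genes together summed to 3.06 and 3.39 UMIs per 10000 at 7 dpi in spots just outside it (4 to under 5 Col1a1 UMIs per 10000) and to 6.55 and 3.84 in spots just inside (5 to under 6). In the wild type at 21 dpi the same sums were 3.93 and 2.62 outside and 4.55 and 4.14 inside.

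Which of these genes differed between the younger and the older scar was asked in fibrotic spots of the wild type, 2 slices at 7 dpi against 2 at 21 dpi. Fbn2 and Fbln2 were higher at 7 dpi, while Fbln1 and Efemp1 were higher at 21 dpi. The other 6 genes, Eln included, did not pass. Since the genes were picked with the levels of these spots known, the tests describe them and are not independent support.

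Fbln2, a fibulin of developing and remodelling matrix (chr6:91212455-91272540, GRCm38, + strand, ENSMUSG00000064080), was at 1.13 and 1.09 UMIs per 10000 at 7 dpi and at 0.197 and 0.158 at 21 dpi. Each pair of mice lay close together. The fall with time was 6.27-fold (log2 difference 2.65, SE 0.20, edgeR adjusted p 0.000117, and up to 0.0164 over the alternatives). Alternatives with a slice left out have only 1 mouse at that time. Fbn2, the fibrillin most used in development, fell likewise from 0.236 and 0.180 to 0.0179 and 0.0245, with a log2 difference of 3.17 (SE 0.41, edgeR adjusted p 0.00308, and up to 0.0481 over the alternatives). Its later values rest on 4 and 7 UMIs. Deleter slice 1, high in Xist, stood at 0.210 for Fbln2 and 0.0467 for Fbn2 at 21 dpi.

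Efemp1, fibulin-3, a short fibulin of fascia and other fibrous tissue (chr11:28853204-28926743, + strand, ENSMUSG00000020467), went the other way. It was at 0.413 and 0.414 UMIs per 10000 at 7 dpi and at 2.78 and 1.62 at 21 dpi, 5.33-fold higher (log2 difference -2.41 as 7 minus 21 dpi, SE 0.26, edgeR adjusted p 0.00159, and up to 0.0423 over the alternatives). Fbln1, which lies in elastic fibres and basement membranes and binds fibronectin (chr15:85205949-85286535, + strand, ENSMUSG00000006369), was at 1.23 and 1.72 at 7 dpi and at 3.92 and 2.38 at 21 dpi. The log2 difference of Fbln1 was -1.07 (SE 0.25, edgeR adjusted p 0.0398, and up to 0.242 over the alternatives), and its call was lost in fibrotic spots that had at least 4 fibrotic neighbours, at an adjusted p of 0.0800. It was also lost without slice 1 or slice 2 at 7 dpi (edgeR adjusted p 0.193 and 0.104), without slice 1 at 21 dpi (0.0933), without TMM scaling, at a Col1a1 minimum of 2 and in the 75 spots per slice with most Col1a1. Deleter slice 1 stood at 2.23 for Efemp1 and 3.23 for Fbln1.

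Both genes that were higher in the older scar had an entry among the RefSeq promoters (GRCm38.p6), and their bases just upstream of the start are shown to let the pair be compared. Capitals in Fbln1 mark GTCTG, the SMAD element CAGAC read on the other strand. Capitals in Efemp1 mark TGAATCA, a match to the AP-1 motif TGANTCA, and CCGCCC, the GC box GGGCGG read on the other strand.
Fbln1 (chr15:85205699-85205948, + strand): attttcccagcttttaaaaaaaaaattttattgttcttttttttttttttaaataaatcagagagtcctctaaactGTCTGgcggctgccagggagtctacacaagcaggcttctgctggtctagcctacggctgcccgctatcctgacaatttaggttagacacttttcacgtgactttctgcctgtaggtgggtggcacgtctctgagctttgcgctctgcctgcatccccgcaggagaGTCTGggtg
Efemp1 (chr11:28852955-28853203, + strand): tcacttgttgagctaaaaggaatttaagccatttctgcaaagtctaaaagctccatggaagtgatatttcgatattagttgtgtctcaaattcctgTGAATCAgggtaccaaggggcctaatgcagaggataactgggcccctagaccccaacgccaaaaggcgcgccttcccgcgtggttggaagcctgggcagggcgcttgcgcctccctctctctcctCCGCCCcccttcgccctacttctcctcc
The windows shared none of these marked motifs. Fbln1 held CAGAC 2 times, the nearer match 9 bases from the start, as 42.2% of all 32851 RefSeq windows held at least 1 match, counting both strands. Efemp1 held the AP-1 motif 153 bases and the GC box 28 bases from the start, motifs present in 6.75% and 32.7% of windows. TATAAA (12.4% of windows) and the TEAD motif GGAATG (12.6%) were in neither. These matches describe letters and are not binding sites, and entries were found for 6 of the 10 genes.

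Eln itself (chr5:134702593-134747323, - strand, ENSMUSG00000029675) stood at 1.81 and 5.01 UMIs per 10000 at 7 dpi and 0.277 and 1.32 at 21 dpi. Both slices at 7 dpi were above both at 21 dpi, but mice of the same time differed by several fold. The difference, 4.29-fold (log2 2.10, SE 0.58), did not pass (edgeR adjusted p 0.0831, and 2.74e-25 to 0.732 over the alternatives). It passed without slice 1 or slice 2 at 21 dpi (log2 1.40 and 3.64, edgeR adjusted p 1.91e-05 and 2.78e-25, where the lone late slice is assumed to vary like the others), without the filter on low counts and, at an adjusted p of 0.0115, with the deleter slices (0.525 and 0.802) added to the late group. Without slice 2 at 7 dpi the log2 difference was 1.18. Of the remaining genes, Fbn1 (1.33 and 1.62 against 0.984 and 1.04, log2 difference 0.56, SE 0.17) and Mfap4 (0.673 and 1.28 against 1.27 and 2.30, log2 difference -0.81, SE 0.31) had edgeR adjusted p-values of 0.111 and 0.211. Without slice 1 at 21 dpi, the log2 difference of Mfap4 was -1.15. Fbln5, Efemp2 and Mfap5 lay between 0.502 and 0.689.

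Over all 12912 genes tested, 1.60% were called higher at 7 dpi (206 genes) and 2.30% higher at 21 dpi (297), against 2 and 2 of the 10 elastic fibre genes. Their median log2 difference was 0.18, beside -0.00016 over all genes. Cell markers differed between the times as well. All 5 myofibroblast markers (Cthrc1, Lrrc15, Postn, Acta2 and Fn1) were higher at 7 dpi, summing to 15.1 and 18.4 UMIs per 10000 against 9.10 and 8.78. So were Tagln of the smooth muscle list, which shares Acta2, and Slc17a7 of the neuron list. Dcn and Lum of the 6 fibroblast markers, 3 of 4 astrocyte markers (9.41 and 9.66 against 17.6 and 20.3) and Ptgds of the border-fibroblast list (14.8 and 19.9 against 95.8 and 57.6 for its 4 genes) were higher at 21 dpi, and so was Lyz2 of the macrophage list. Col1a1 itself did not pass (edgeR adjusted p 0.551). The part of these cells in the differences was not tested.

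**Figure D2:**
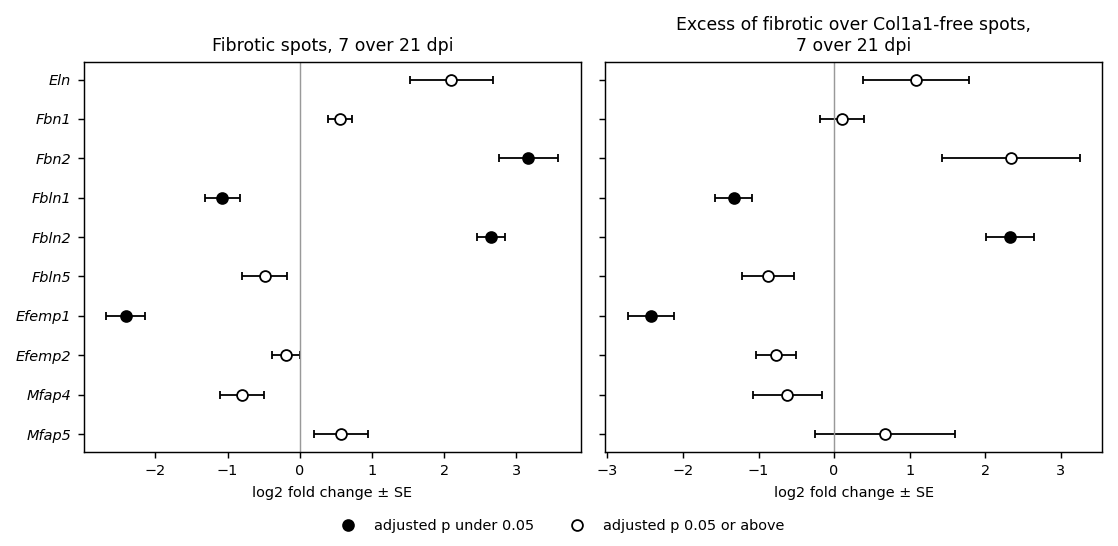
Log2 fold change of each gene with its standard error (horizontal axes), for fibrotic spots at 7 minus 21 dpi and for the excess of fibrotic over Col1a1-free spots at 7 minus 21 dpi, 2 wild-type slices per time; filled points have an adjusted p under 0.05. Fbln2 lies far to the right and Efemp1 far to the left in both.

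Whether the excess of fibrotic over Col1a1-free spots changed with time was tested with each slice as its own control. The genes were picked on these same levels, so this test, too, describes them and is not independent support. The excess of Fbln2 was larger at 7 dpi (log2 difference 2.33, SE 0.32, edgeR adjusted p 0.00708, and up to 0.0635 over the alternatives). In Col1a1-free spots Fbln2 was at 0.0816 and 0.0845 UMIs per 10000 at 7 dpi and 0.0634 and 0.0727 at 21 dpi, so all 4 values there lay close together. The excess of Efemp1 was larger at 21 dpi (-2.42, SE 0.30, edgeR adjusted p 0.00493, and up to 0.0494 over the alternatives), and so was that of Fbln1 (-1.33, SE 0.25, edgeR adjusted p 0.0213, and up to 0.160 over the alternatives). Without slice 2 at 7 dpi, Fbln2 (adjusted p 0.0635) and Fbln1 (0.0796) lost the call and Efemp1 kept it, and Fbln1 also lost it without slice 1 at 7 dpi (0.160) or slice 1 at 21 dpi (0.0770). Fbn2, with 13 and 1 UMIs in the Col1a1-free spots at 21 dpi, had a log2 difference of 2.34 (SE 0.91, edgeR adjusted p 0.208). The excess of Eln, at 1.08 (SE 0.70), did not pass either (edgeR adjusted p 0.460, and 0.0288 to 0.947 over the alternatives).

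Among all 14147 genes, 0.820% had a larger excess at 7 dpi and 3.19% a larger excess at 21 dpi, against 1 and 2 of the 10. The excess of all 5 macrophage markers was larger at 21 dpi, as was that of 3 of 4 astrocyte markers (Gfap, Aqp4 and Slc1a3), Dcn, Ptgds and Fn1. The excess of Cthrc1 was larger at 7 dpi. For 3 of 5 neuron markers the ratio of fibrotic to Col1a1-free spots was larger at 7 dpi, but the list had no excess. Its 5 genes summed to 8.50 and 11.7 UMIs per 10000 in fibrotic against 29.8 and 44.1 in Col1a1-free spots at 7 dpi. In the wild type at 21 dpi the sums were 7.67 and 8.17 against 50.6 and 62.9. The part of these cells was not tested.

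Genes that work with the elastic fibre were described from a list grouped by role. Among 13 microfibril partners tested in fibrotic spots, Vcan was higher at 7 dpi, and Ltbp2 and Ltbp3 were higher at 21 dpi. Vcan encodes versican, a proteoglycan that links hyaluronan to fibrillin, and was at 1.16 and 0.792 UMIs per 10000 against 0.206 and 0.256 (log2 difference 2.01, SE 0.24, edgeR adjusted p 0.00204, and up to 0.0198 over the alternatives). Ltbp2 and Ltbp3 belong to the latent TGF-beta binding proteins, which attach to fibrillin. Ltbp2 was at 0.165 and 0.483 at 7 dpi and 0.836 and 0.946 at 21 dpi (edgeR adjusted p 0.0498, and up to 0.523 over the alternatives), and Ltbp3 at 0.685 and 0.981 and then 1.79 and 1.76 (edgeR adjusted p 0.0132, and up to 0.320 over the alternatives).

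Of 5 crosslinking genes tested, Loxl2 was higher at 7 dpi, at 0.626 and 0.498 UMIs per 10000 against 0.206 and 0.161 (log2 difference 1.57, SE 0.23, edgeR adjusted p 0.00543, and up to 0.0779 over the alternatives). Lox, the founding lysyl oxidase, did not pass, at 1.06 and 1.52 against 0.885 and 0.887. Of 8 elastin-degrading enzymes, the gelatinase gene Mmp9 was higher at 7 dpi, at 0.484 and 0.253 against 0.0805 and 0.0596 (log2 difference 2.25, SE 0.38, edgeR adjusted p 0.0107, and up to 0.0462 over the alternatives). None of the 6 integrin subunits passed.

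When the excess over Col1a1-free spots was tested instead, 4 of 8 degrading enzymes had a larger excess at 21 dpi: Mmp12, the macrophage elastase, and the lysosomal cathepsins Ctss, Ctsl and Ctsb. Mmp12 was at 4.29 and 3.12 UMIs per 10000 in fibrotic spots at 7 dpi and 5.81 and 1.80 at 21 dpi, so the times overlapped there. In Col1a1-free spots Mmp12 was at 0.695 and 2.15 at 7 dpi and 0.0554 and 0.0363 at 21 dpi, and its excess differed by -4.88 on the log2 scale (SE 0.68, edgeR adjusted p 0.00774, and up to 0.0446 over the alternatives). The excess differed by -1.26 for Ctsl and -0.98 for Ctsb, with edgeR adjusted p-values of 0.0155 and 0.0213 that reached 0.137 and 0.208 over the alternatives, and for Ctss the adjusted p was 0.00240 and reached 0.0562. In fibrotic spots alone none of these 3 cathepsins passed, at log2 differences of 0.19 for Ctsl, 0.25 for Ctsb and -0.53 for Ctss. The excess of the 5 macrophage markers was also larger at 21 dpi, and the part of macrophages in these differences was not tested. Itgb5, an integrin subunit that binds vitronectin with Itgav (-1.51, edgeR adjusted p 0.0174), and the microfibril partners Ltbp3 (-1.12, edgeR adjusted p 0.0213) and Thsd4 (-2.20, edgeR adjusted p 0.0439) also had a larger excess at 21 dpi. Over the alternatives these 3 calls were lost as well, at adjusted p-values of up to 0.148, 0.139 and 0.166. Vcan, Ltbp2, Loxl2 and Mmp9, called in fibrotic spots, did not pass for the excess. Their log2 differences were 0.77, 0.35, -0.58 and -0.78 (edgeR adjusted p 0.361, 0.853, 0.713 and 0.722). For Ltbp2, Loxl2 and Mmp9 the sign was thus opposite to that in fibrotic spots.

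Within fibrotic tissue the UMIs of Eln, Fbn1 and Fbln1 were unevenly spread over spots. The 10 fibrotic spots of each slice with most Eln held between 16.5% and 50.4% of its UMIs there. The highest single spot held 13 and 65 UMIs at 7 dpi and, for wild-type mice at 21 dpi, 3 and 32. In slice 1 at 7 dpi (112 fibrotic spots) the share in a gene's own top 10 spots was 49.0% for Eln, 48.7% for Fbn1 and 49.0% for Fbln1. In slice 2 (392 spots) it was 16.5%, 16.2% and 18.3%. Eln stood furthest above both in wild-type slice 2 at 21 dpi, at 50.4% against 25.7% and 20.3%. The 10 top Eln spots were picked on Eln UMIs not scaled by depth. Their median depth was 20323.5 UMIs against 8965 in the other fibrotic spots of slice 2 at 7 dpi. In wild-type slice 2 at 21 dpi it was 10995.5 against 13948. The level of Col1a1 in the top Eln spots was 132 UMIs per 10000 against 37.5 in wild-type slice 2 at 21 dpi. In slice 2 at 7 dpi it was 34.8 against 30.4. Fbn1, Col1a1, Postn and Mfap4 were each higher in the top Eln spots of all 6 slices, Fbn1 from 1.69 against 0.918 to 4.11 against 0.903. Not all elastic fibre genes were. Fbln5 was lower there in both slices at 7 dpi (0.103 against 0.160 and 0.153 against 0.374) and higher in those at 21 dpi. At 7 dpi its levels in the top Eln spots rest on only 1 and 3 UMIs. Efemp1 was lower in both deleter slices (0.979 against 2.31 and 1.52 against 1.70) and higher in the wild type, and Fbln2 went both ways. Smooth muscle transcripts were mixed in these spots. Myh11, the smooth muscle myosin, had between 0 and 5 UMIs in the top Eln spots of a slice. Its level there was below that of the other fibrotic spots in both slices at 7 dpi and both deleter slices. In the wild type at 21 dpi it was above, at 0.265 against 0.132 on 5 UMIs and 0.0838 against 0.0585 on 1 UMI. Acta2, an actin of smooth muscle and of myofibroblasts, was higher in the top Eln spots of 5 of 6 slices, for instance 1.86 against 0.986 in slice 1 at 7 dpi and 1.11 against 0.479 in wild-type slice 1 at 21 dpi, and Tagln in 3 of 6. The part of vessel walls was not tested.

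**Figure D3:**
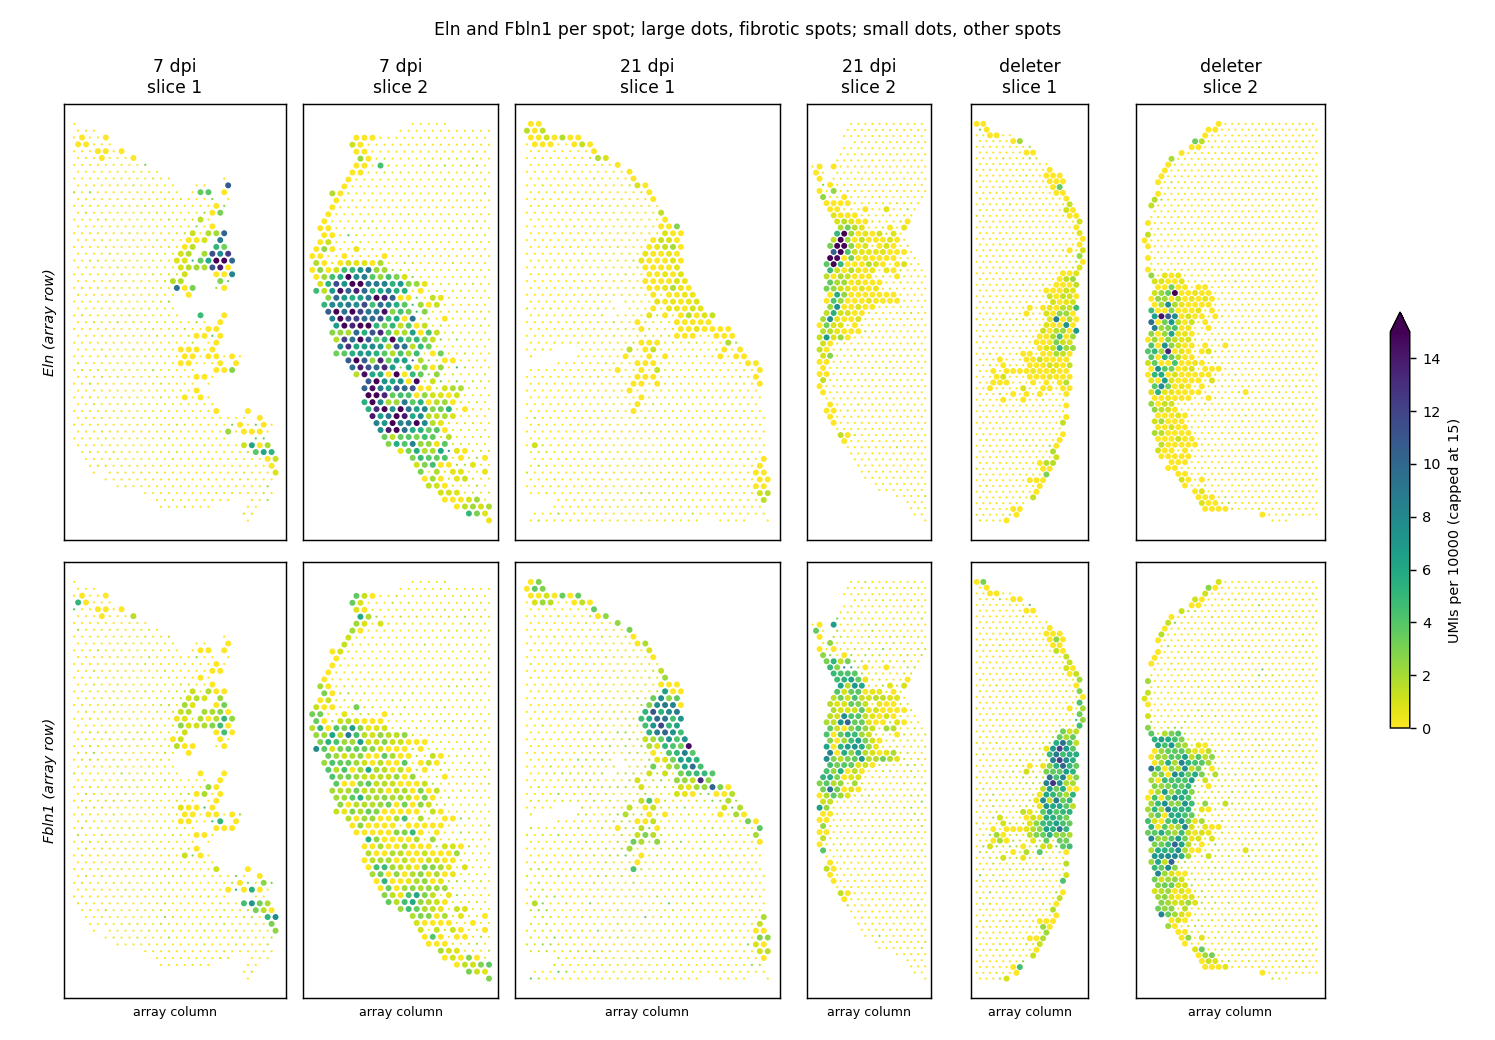
Level of Eln and Fbln1 per spot (colour, UMIs per 10000, capped) at the array position of each spot in the 6 slices at 7 and 21 dpi; large dots are fibrotic spots and small dots other spots. Eln is densest in slice 2 at 7 dpi and forms small patches in the other slices, while Fbln1 is broad in the fibrotic tissue at 21 dpi.

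The genes whose levels ran most alike were ranked over the 12 sums of fibrotic and Col1a1-free spots of the 6 slices, among 13897 genes. For Eln these were Tfpi2 (Pearson r = 0.975), Serpina3g (0.973) and Ripk3 (0.972). For Fbn2 they were Col7a1 (0.966), Fbln2 (0.961) and Ms4a4c (0.955). The sums share slices and depth, so the values only describe these slices.

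Position inside the fibrotic tissue was not used to choose the genes, but their levels in these Col1a1-rich spots were. Col1a1 itself was higher in the outer rings, as given below. The test of position therefore describes the genes and is not independent support. Rings of spots were counted inward from the tissue edge, and rings 1 and 2 (outer) were compared with ring 3 and deeper (inner) within each of the 6 slices. Of the 9 genes tested, 4 were higher in the outer rings, namely Fbln5, Mfap4, Mfap5 and Eln, and none was higher in the inner rings. Among all 11072 genes, 6.49% were higher in the outer and 5.48% in the inner rings. Fbn2 had too few counts for this test.

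Fbln5 (chr12:101746565-101819055, - strand, ENSMUSG00000021186) was higher outside in 6 of 6 slices. Outer against inner levels were 0.175 against 0 and 0.653 against 0.221 UMIs per 10000 at 7 dpi. In the wild type at 21 dpi they were 0.878 against 0.254 and 0.588 against 0.245, and in the deleter 0.539 against 0.207 and 0.760 against 0.256. No outer level of a slice with inner UMIs fell under 2 times its inner level, and the fitted difference was 2.84-fold (log2 1.50, SE 0.13, edgeR adjusted p 2.75e-06, and 5.22e-19 to 0.0339 over the alternatives). The inner level of 0 came from slice 1 at 7 dpi, which had 9 inner fibrotic spots.

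Mfap4 (chr11:61485431-61488900, + strand, ENSMUSG00000042436) was also higher outside in 6 of 6 slices. It was at 0.766 against 0 and 2.18 against 0.841 UMIs per 10000 at 7 dpi, at 2.24 against 0.621 and 4.80 against 1.43 in the wild type at 21 dpi, and at 2.00 against 1.14 and 2.50 against 2.00 in the deleter. The fitted difference was 2.32-fold (log2 1.21, SE 0.19, edgeR adjusted p 0.000475, and 6.26e-19 to 0.224 over the alternatives), and the gap was narrowest in the deleter slices. Ring by ring, Mfap4 of deleter slice 2 went from 2.18 in ring 1 to 4.68 in ring 3 and to 0.854 in ring 5 and deeper.

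Ring by ring, Eln was lower in ring 1 than in ring 2 of all 6 slices. In deleter slice 2 it went from 0.904 in ring 1 to 1.83 in ring 4 and to 0.230 in ring 5 and deeper. With rings 1 and 2 together as outer, Eln was higher outside in 5 of 6 slices. In the wild type at 21 dpi it was at 0.411 against 0.187 and 3.45 against 0.589 UMIs per 10000, and in slice 1 at 7 dpi at 2.03 against 0.194. The exception was slice 2 at 7 dpi, the slice with most Eln, at 4.53 against 5.25. Its fitted difference was 2.07-fold (log2 1.05, SE 0.29, edgeR adjusted p 0.0234, and 7.53e-12 to 0.774 over the alternatives). Mfap5 (chr6:122505845-122529290, + strand, ENSMUSG00000030116) was 1.80-fold higher outside, in 5 of 6 slices (log2 0.84, SE 0.22, edgeR adjusted p 0.0188, and 3.09e-05 to 0.529 over the alternatives). Fbln5 and Mfap4 stayed called with any 1 slice left out. Eln lost the call without slice 1 at 7 dpi (edgeR adjusted p 0.0537), wild-type slice 1 or 2 at 21 dpi (0.0557 and 0.121, the latter with a log2 difference of 0.65) or deleter slice 1 (0.0582), and Mfap5 without wild-type slice 1 or 2 (0.0686 and 0.0817) or deleter slice 2 (0.0609). Eln and Mfap5 also lost it with ring 1 alone as outer, at log2 differences of 0.10 and 0.27.

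Fbln1 had no outer excess. Its fitted log2 difference was 0.05 (edgeR adjusted p 0.883), with the sign turned under several alternatives, and its rings differed between slices. From ring 1 to ring 5 and deeper it was at 3.53, 4.61, 6.10, 4.56 and 2.02 UMIs per 10000 in wild-type slice 1 at 21 dpi, and at 2.22, 3.70, 5.80, 5.71 and 2.06 in deleter slice 1. In both slices the third ring was the highest, and in deleter slice 2 the fourth, at 3.95 against 2.17 in ring 1. Wild-type slice 2 was flatter, between 2.43 and 3.08 in rings 1 to 4 and 1.84 deeper, and slice 1 at 7 dpi went the other way, from 1.31 in ring 1 to 0.388 in ring 3. Efemp1, Efemp2 and Fbn1 were higher outside in 6 of 6 slices without passing, at log2 differences of 0.51, 0.26 and 0.37 and edgeR adjusted p-values of 0.0768, 0.132 and 0.165.

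**Figure D4:**
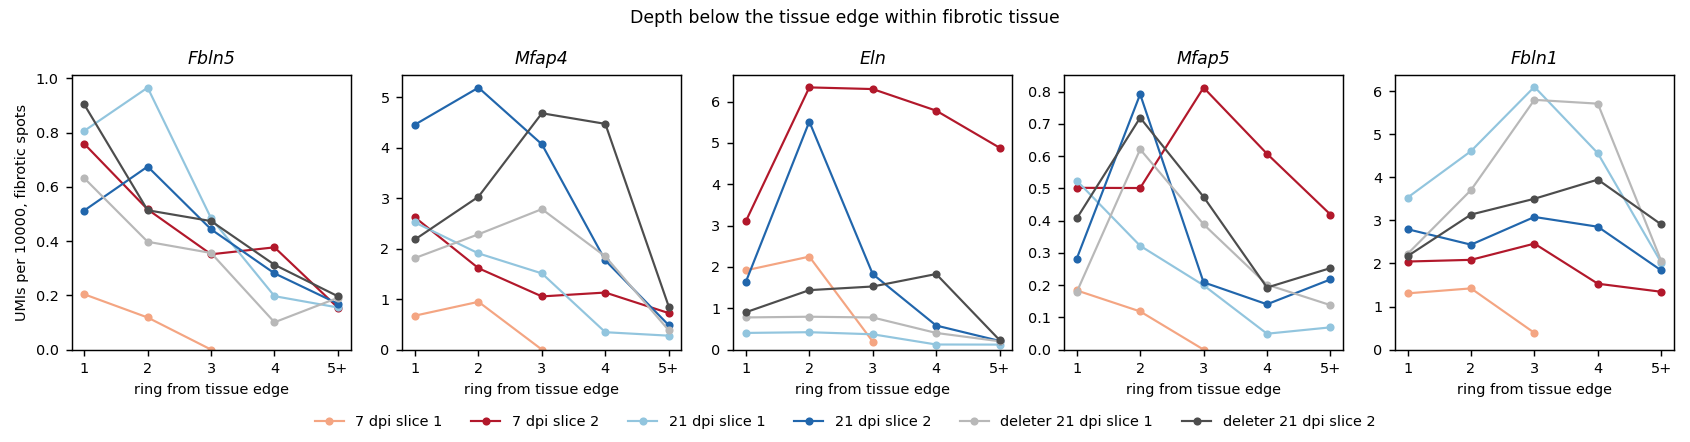
Level in fibrotic spots (vertical axes, UMIs per 10000) of Fbln5, Mfap4, Eln, Mfap5 and Fbln1 by ring from the tissue edge (horizontal axes; 5+, ring 5 and deeper), with 1 line per slice at 7 and 21 dpi. Fbln5 is lower in each ring from the third inward than in rings 1 and 2 of the same slice, while Fbln1 at 21 dpi is highest around rings 3 and 4.

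Other transcripts ran with these positions. Col1a1, which defines the spots, was itself higher in the outer rings (log2 1.02, SE 0.12). So were 3 of 6 fibroblast markers (Col1a2, Lum and Pdgfrb) and 3 of 5 myofibroblast markers (Lrrc15, Postn and Acta2), the median log2 difference of the 5 being 1.03. The fibroblast list summed to more outside in 6 of 6 slices, for instance 108 against 66.1 UMIs per 10000 in wild-type slice 2 at 21 dpi. Also higher outside were 3 of 4 border-fibroblast markers (Ptgds, Slc6a13 and Myoc), whose list summed to between 16.5 and 144 UMIs per 10000 in outer and between 2.52 and 102 in inner spots, 4 of 5 endothelial markers, and Tagln, Acta2 and Rgs5 of the 5 smooth muscle and pericyte markers tested. The smooth muscle and pericyte list summed to between 3.48 and 4.89 in outer and between 1.19 and 5.33 in inner spots. Macrophage (4 of 5) and oligodendrocyte (4 of 4) markers were higher in the inner rings. At least 4 fibrotic neighbours were found for 85 of 122 outer and 224 of 270 inner fibrotic spots in slice 2 at 7 dpi. In slice 1 at 7 dpi it was 34 of 103 outer and 1 of 9 inner spots. A spot at the tissue edge lacks some neighbours by position. Among fibrotic spots with at least 4 fibrotic neighbours, without slice 1 at 7 dpi, Fbln5 (1.31), Mfap4 (1.19) and Mfap5 (0.99) were called and Eln (0.99, edgeR adjusted p 0.124) was not. The part of these cell types was not tested.

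Of the related genes, 7 of 13 microfibril partners tested (Ltbp2, Ltbp3, Ltbp4, Emilin1, Fbln7, Adamts10 and Hmcn1) were higher in the outer rings, with a median log2 difference of 0.72 over the 13, beside 0.01 over all genes. Lox, Loxl1 and the chaperone Fkbp10 were higher outside among 5 crosslinking genes, as were Mmp2, Mmp14 and Ctsk among 8 degrading enzymes, of which Ctss and Ctsb were higher inside. Itga8 was higher outside, 1 of 6 integrin subunits.

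Whether deleter mice differed from wild-type mice was tested in fibrotic spots at 21 dpi. Cthrc1, whose promoter drives the Cre, was at 0.219 and 0.175 UMIs per 10000 in the wild type and 0.101 and 0.132 in the deleter. None of the 10 elastic fibre genes passed, against 0.00772% of 12945 genes higher in the wild type (1 gene) and 0% higher in the deleter. At an unadjusted p under 0.05 there were 899 genes, Fbn2 the 1 elastic fibre gene among them, and DESeq2 called 8 genes, none of the 10. Fbn2 was at 0.0467 and 0.0661 in the deleter against 0.0179 and 0.0245 (log2 difference -1.40 as wild type minus deleter, SE 0.47, edgeR adjusted p 0.715). Eln overlapped between the genotypes, at 0.525 and 0.802 in the deleter, between 0.277 and 1.32 in the wild type (log2 difference 0.27, SE 0.56, edgeR adjusted p 0.936, and 0.0463 to 1 over the alternatives). The lowest of these was reached without wild-type slice 1. Other log2 differences lay between -0.27 and 0.16.

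Outside fibrotic tissue, elastic fibre transcripts were looked for at the edge of the slice, where the meninges lie in an intact brain. At rest, Efemp1 was at 0.970 UMIs per 10000 in the 85 edge spots (exact 95% Poisson interval 0.747 to 1.24) against 0.0632 in the 929 interior spots (0.0513 to 0.0769). Fbln5 was at 0.379 (0.245 to 0.559) against 0.0249 (0.0177 to 0.0340), and Fbln1 at 0.227 (0.127 to 0.375) against 0.0376 (0.0287 to 0.0486). Efemp2 was at 0.258 against 0.0536 and Fbln2 at 0.0758 against 0.0415. Fbn1, Mfap4 and Eln had 2 or 3 edge UMIs each, at 0.0455 against 0.0357, 0.0455 against 0.0115 and 0.0303 against 0.00893, and Fbn2 and Mfap5 had 1 each. The border-fibroblast list was at 102 against 6.53 in this 1 mouse, and its part in these levels was not tested.

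Over all 8 slices, no gene passed the test of edge against interior in either direction, 0% each way of 13321 genes, and so none of the 8 elastic fibre genes tested. Edge spots that were fibrotic were left out of this test. They were 76 of 182 and 69 of 85 edge spots at 7 dpi. In the wild type at 21 dpi they were 57 of 116 and 47 of 92, and in the deleter 67 of 80 and 69 of 92. The test thus covers only the Col1a1-poor remainder of the edge, few spots in some slices. At an unadjusted p under 0.05 there were 949 genes, 7 of them elastic fibre genes, and DESeq2 called 67 genes with Efemp1 and Mfap4 among them, at adjusted p-values of 0.0488 and 0.0294. Mfap4 was higher at the edge in 8 of 8 slices (log2 1.37, SE 0.33, edgeR adjusted p 0.200, and 0.0294 to 0.969 over the alternatives), though on 2 to 9 edge UMIs per slice. Efemp1 was higher at the edge in 6 of 8 (log2 1.68, SE 0.42, edgeR adjusted p 0.211, and 0.0260 to 0.934 over the alternatives, the lowest without slice 1 at 7 dpi). The exceptions were both slices at 7 dpi, at 0.0839 and 0.0870 at the edge against 0.153 and 0.118 inside. The border-fibroblast list at the edge was also at its lowest there, 9.28 and 12.8. In the fibrotic edge spots of these slices, which the test left out, Efemp1 was at 0.367 and 1.19. Outside fibrotic spots, the edge level of Efemp1 was 0.817 at 2 dpi, and 0.587 and 0.509 in wild-type slices at 21 dpi.

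**Figure D5:**
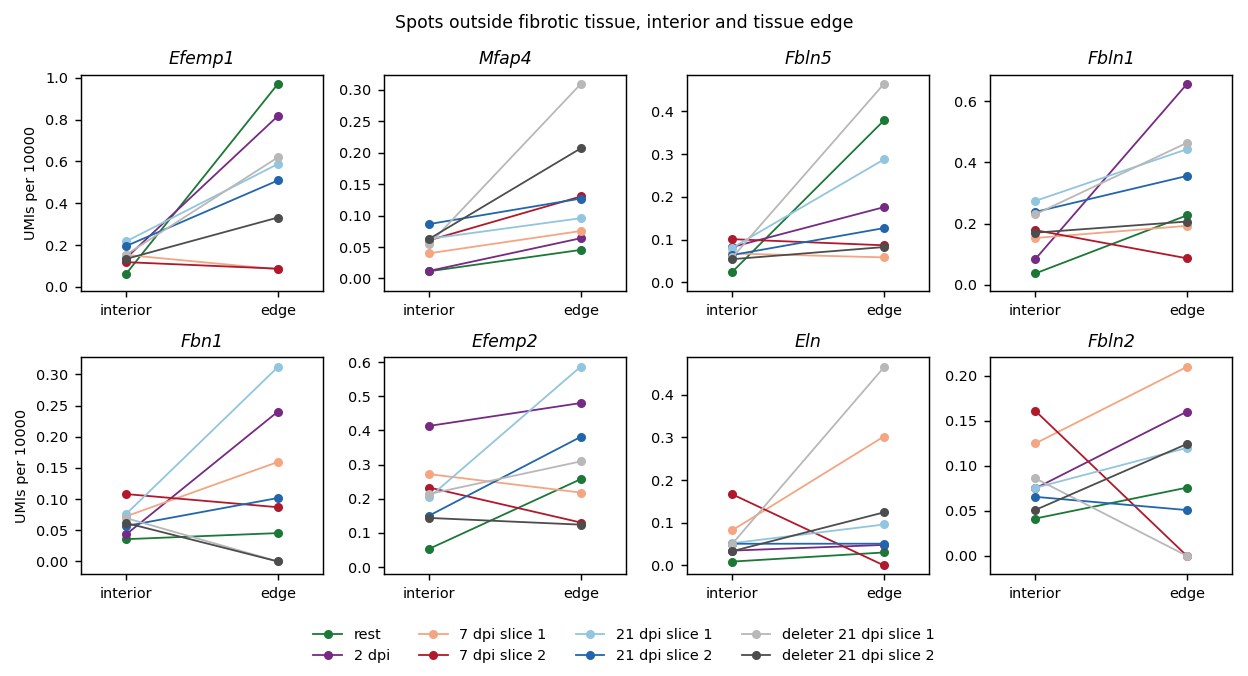
Level of 8 elastic fibre genes (vertical axes, UMIs per 10000) in spots outside fibrotic tissue, in the interior and at the tissue edge (horizontal axes), with 1 line per slice for all 8 slices. Efemp1 and Fbln5 climb steeply toward the edge at rest, and Efemp1 does not at 7 dpi in the edge spots that were not fibrotic.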

How the data were processed

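Per the labels and methods, the authors aligned Visium reads to mm10 with Space Ranger 2.0.0. The UMI count of every gene in every spot was deposited as it was, with no normalization. The deposited spot positions, which are other numbers, gave connected tissue pieces (slices) and rings from the tissue edge. Spots over tissue were kept, and no doublet caller was run. Of the tissue spots in 1 slice, 4 held no UMI. In all, 1293 spot barcodes repeat between the areas because the same array is printed on each. Counts were summed per slice and class of spots and tested with the quasi-likelihood F test of edgeR 4.0.16 in R 4.3.3 (TMM, filterByExpr, Benjamini-Hochberg over all genes tested, threshold 0.05), with slice as a block where both classes came from 1 slice. DESeq2 1.42.0 was an alternative. Standard errors were the log2 difference over the root of F. Fits were tested on simulated data with the same spread for every gene and no differences between mice. Calls at the spread of these mice were thus not checked. A fibrotic class needed 20 spots. Named were the 10 genes, related genes that passed, the 3 genes most alike to Eln and Fbn2 (log2 of UMIs per 10000 plus 0.1, genes of at least 100 UMIs), and markers beside a result. Genes, lists and tests were chosen with earlier results of these data known. Gene positions are those of GENCODE on GRCm38. The 3' counts are not scaled by length, so levels are not compared between genes.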

Additional observations from a re-analysis of the deposited data

Results flagged for a closer look

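For 3 genes the excess of fibrotic over Col1a1-free spots differed between 7 and 21 dpi by a test of the difference itself (edgeR, log2, 7 minus 21 dpi): Fbln2 at 2.33 (adjusted p 0.00708), Efemp1 at -2.42 (adjusted p 0.00493) and Fbln1 at -1.33 (adjusted p 0.0213). The genes were picked on levels of these same spots, so the values describe them and are not independent support. Time coincides with capture area and, in these wild-type slices, with sex, and the groups cannot be told apart from either.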

How the results depend on the processing

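Precision is limited by 2 slices per group and, for Fbn2 and Mfap5, by few UMIs. For 7 against 21 dpi, 503 genes were called (DESeq2 304, no filter on low counts 1123, Col1a1 minimum 2 per 10000 187, the 75 spots with most Col1a1 33, deleter slices added 1019, each slice left out 236 to 863), and 4 elastic fibre genes (3 to 5 with a slice left out). Mfap5 (0.57) turned to -0.10 with 75 spots and ran from -0.84 to 0.96 with a slice left out. For the excess, 567 genes were called (346, 1433 and 364 under the first 3 of these, 60 to 776 with a slice left out) and 3 elastic fibre genes (1 to 3, the 1 without slice 2 at 7 dpi). Fbn1 turned to -0.085 with Col1a2 in place of Col1a1. With a slice left out, Fbn1 ran from -0.16 to 0.34, Mfap4 from -1.23 to 0.22, Mfap5 from -0.75 to 3.04 and Eln from -0.30 to 2.24.

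For wild type against deleter, 1 gene was called (DESeq2 8, no filter 270, Col1a1 minimum 2 and Col1a2 0 each, minimum 10 4, a slice left out 1 to 155) and 0 elastic fibre genes (0 to 1). Signs turned there for Fbln1 (-0.0019 without the filter, -0.012 at minimum 10), Fbn1 (0.013 at minimum 10), Mfap4 (0.017 at minimum 2, 0.021 at minimum 10) and, with Col1a2, Fbn1 (0.32), Fbln2 (0.090), Mfap4 (0.41) and Mfap5 (0.18). With a slice left out, Eln ran from -1.28 to 0.97, Fbln1 from -0.39 to 0.33, Fbln5 from -0.17 to 0.43, Efemp1 from -0.28 to 0.50, Efemp2 from -0.033 to 0.21 and Mfap4 from -0.52 to 0.32.

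For outer against inner rings, 1326 genes were called (no slice block 86, wild-type slices alone 480, at least 4 fibrotic neighbours 631, a slice left out 798 to 1501) and 4 elastic fibre genes (no block 1, and 2 with wild-type slices alone, ring 1 alone as outer or Col1a1 minimum 10, and 2 to 4 with a slice left out). Fbln1 turned to -0.035 without the block, -0.15 with ring 1 alone and -0.28 at minimum 10, and ran from -0.047 to 0.16 with a slice left out. Fbln2 turned to -0.029 in wild-type slices and Fbn1 to -0.0028 with ring 1 alone. For edge against interior, 0 genes were called (DESeq2 67, no filter 3, no block 35, a slice left out 0 to 46) and 0 elastic fibre genes (DESeq2 2, no block 1, a slice left out 0 to 1). The cause was not tested. The settings with fibrotic neighbours were chosen after seeing the data. No pairing of slices between times or genotypes was possible because slices within an area carry no names in the labels and their numbers pair nothing. Classes of spots from 1 slice were compared within that slice.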
